A study of Mus musculus with 6 samples.

Results

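The genes of cholesterol synthesis and of its control by sterol regulatory element-binding proteins (SREBPs) were followed in 6 lung metastases of Myc-driven mouse mammary tumours. The list held 26 genes, ordered from the first steps on acetyl-CoA to cholesterol and then to sterol transport and SREBP control. The genes were chosen by their place in the pathway, after lipid genes had been seen to differ between these same metastases, so the KO and Het values below are a description and not independent evidence. For 24 of the 26 genes a probe set annotated with only that symbol was present, of 12393 genes with such a probe set. Acat2 and Insig1 were not analysed here. Where a gene had several probe sets, the one with the highest mean signal over the 6 arrays was taken. All 24 passed the filter that removed the dimmest 40% of probe sets.

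Each of the 6 arrays measured 1 metastasis from an FVB mouse carrying Myc under the MMTV promoter, which is active in mammary epithelium. Metastases labelled Myc E2F2 KO (called KO, 3 arrays) were compared with metastases labelled Myc E2F3 Het (called Het, 3 arrays), and the comparison asks how lesions from these 2 E2F backgrounds differ. Both groups therefore carried an altered E2F gene, and metastases with E2F2 and E2F3 intact were not analysed here. The 3 KO titles carry different numbers and the 3 Het titles share 1 number, so the Het arrays may hold lesions of 1 mouse, and genotype and mouse then cannot be told apart. Tissue was taken at endpoint, and the ages of the mice are not given in the sources used here. Replicates were numbered in accession order. E2f2 itself was not analysed here, which leaves the KO label without a check from its own transcript.

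Cholesterol is built from acetyl-CoA through mevalonate, farnesyl diphosphate, squalene and lanosterol. When sterols in the endoplasmic reticulum run low, the escort protein Scap carries SREBPs to the Golgi, where proteases release their transcription factor part, and Insig proteins hold the complex back when sterols are plentiful. Most enzymes of the route are direct SREBP targets and are switched on together. In the lactating mammary gland and in the alveolar type 2 cells of the lung, SREBPs also serve the lipids of milk and surfactant.

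Of the 24 genes, 22 had a higher mean in KO than in Het metastases, and Scap and Mbtps1 had a lower one. The median log2 difference of KO minus Het was 0.36 over the 24 genes, on the scale of log2(signal + 16), which understates changes of dim genes. Over all 7970 genes above the filter the median was -0.04, with 43.7% of genes higher in KO. For 13 of the 24 genes every KO array was above every Het array, against 5.93% of the 7970 genes and 7.87% of all 13575 probe sets tested. The opposite, every KO array below every Het array, was found for 0 of the 24 genes, against 10.49% of the 7970 genes and 8.89% of all probe sets.

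None of the genes passed the test across the whole array. When limma compared the 3 KO samples with 1 mean of the Het arrays, 0 of the 24 genes had an adjusted p under 0.05 (0.9999 for each), as did 0% of all 13575 probe sets, where 305 had an unadjusted p under 0.05. With the 6 arrays counted separately, limma again called 0% of probe sets, 1395 had an unadjusted p under 0.05, and the lowest adjusted p among the 24 genes was 0.263, for Sqle. On simulated data this fit with 1 Het sample called none of the known changes, so the lack of calls does not show that the genes are alike. The labels do not state that each array is a separate mouse. The p-values of the fit with 1 Het sample reflect spread among the 3 KO arrays only. Those with the 6 arrays counted separately reflect spread within both groups. In either case part of the spread may be technical.

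**Figure D1:**
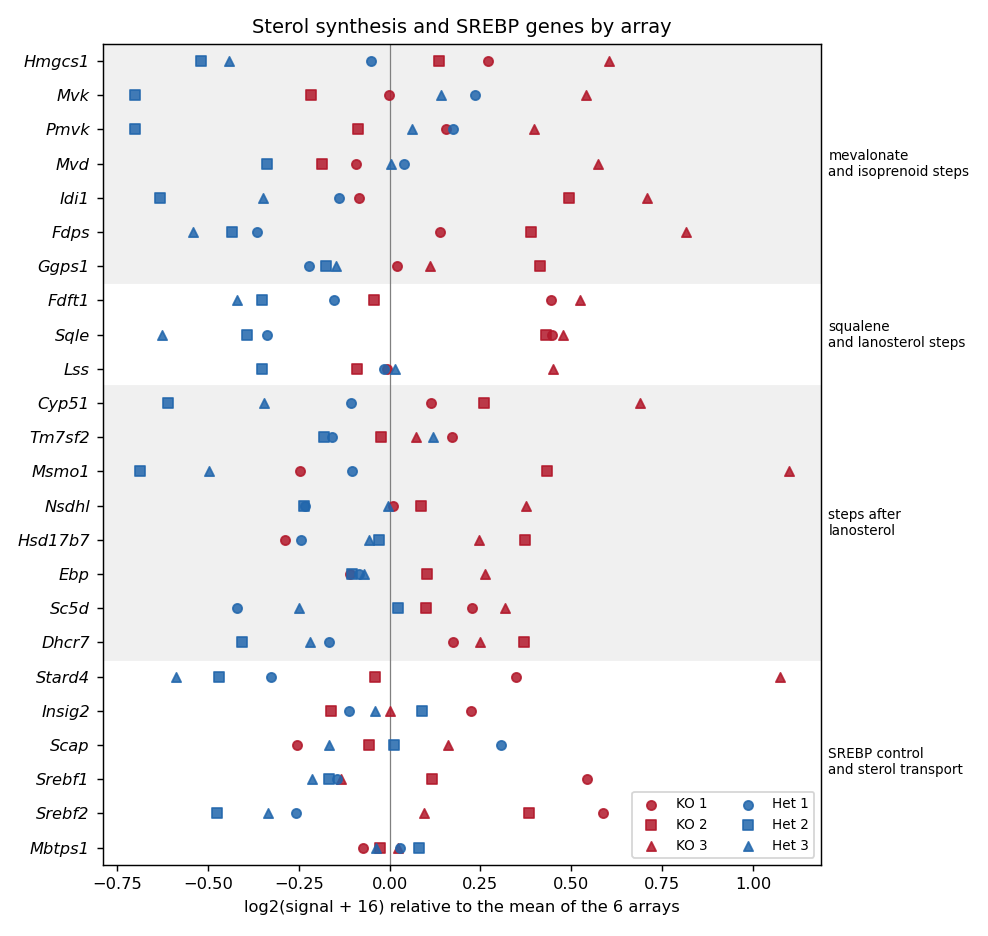
Signal of the 24 genes in each array as log2(signal + 16) relative to the gene's mean over the 6 arrays (horizontal axis), in pathway order from top to bottom; red points are KO arrays, blue points Het arrays, and shapes mark the replicates. For 13 genes all red points lie to the right of all blue points, and KO replicate 3 is the highest array for 15 of the 24 genes.

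In the mevalonate and isoprenoid steps, all 7 measured genes had higher means in KO, and the arrays did not overlap for Hmgcs1, Idi1, Fdps and Ggps1. Hmgcs1, which makes HMG-CoA at the entry of the route, gave signals of 2221, 2021 and 2799 in KO replicates 1 to 3 and of 1774, 1279 and 1349 in Het replicates 1 to 3. Its log2 difference was 0.67 (SE 0.26), and its other 3 probe sets were at 0.63, 0.86 and 0.78, with overlapping arrays for the one at 0.63. Fdps, which makes farnesyl diphosphate, gave 1502, 1788 and 2409 in KO and 1054, 1005 and 931 in Het. The Fdps difference of 0.89 (SE 0.31) was a 1.91-fold ratio of mean signals, and the Het arrays lay close together while KO replicate 3 stood above the other KO arrays. Averaged with its dim second probe set, which was below the filter, Fdps was at 0.41. Idi1, the isomerase that supplies dimethylallyl diphosphate, read 1488, 2229.9 and 2591 in KO against 1430.2, 1014 and 1236 in Het, a difference of 0.75 (SE 0.35). KO replicate 1 and Het replicate 1 were almost level for this gene, and its second probe set was at 0.55 with overlapping arrays. Ggps1, which makes geranylgeranyl diphosphate for protein prenylation, read 275, 366 and 294 in KO against 229.6, 238 and 243 in Het. Its difference was 0.36 (SE 0.27), but its 3 dimmer probe sets were at 0.14, 0.0001 and 0.30 with overlapping arrays, so the probe sets of Ggps1 disagreed.

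The 3 enzymes that turn mevalonate into isopentenyl diphosphate overlapped between groups. The kinase Mvk was at 0.22 (SE 0.42), the kinase Pmvk at 0.31 (SE 0.29) and the decarboxylase Mvd at 0.20 (SE 0.38). Het replicate 2 was the lowest array for all 3 of them. Without Het replicate 2, Mvk was at -0.08, Pmvk at 0.04 and Mvd at 0.08, and without KO replicate 3, Mvk was at -0.0001, Pmvk at 0.19 and Mvd at -0.04. Mvk was the dimmest gene of the 24, with 113 ± 36.2 in KO and 96.7 ± 35.6 in Het (SD, n = 3 arrays each).

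Promoter sequences of RefSeq (GRCm38.p6), each reaching from 250 bases before to 50 bases after a start site, were found for 20 of the 24 genes by symbol, and not for Fdps, Fdft1, Sqle and Stard4. The sterol response element TCACNCCAC, the letters that SREBPs are known to bind, was present on either strand in Hmgcs1 alone of the 20, against 1.44% of the 27025 genes in the table. A looser form, TCACNCNAC, which includes the first, was in Hmgcs1 and Nsdhl, against 3.15% of genes. CCAAT, bound by NF-Y, a known partner of SREBPs, was in at least 1 promoter of 18 of the 20 genes, against 41.06% of genes. GGGCGG, bound by Sp1, was also in 18 of the 20, against 38.2% of genes, and the E-box CACGTG was in 4 of the 20, against 8.09%. The bases upstream of Hmgcs1 (chr13:119690101-119690350, plus strand) and Nsdhl (chrX:72918271-72918520, plus strand) are shown because these genes had both a looser sterol element and arrays that did not overlap. Capitals mark that element and CCAAT or its reverse complement ATTGG, 5′ to 3′.
Hmgcs1: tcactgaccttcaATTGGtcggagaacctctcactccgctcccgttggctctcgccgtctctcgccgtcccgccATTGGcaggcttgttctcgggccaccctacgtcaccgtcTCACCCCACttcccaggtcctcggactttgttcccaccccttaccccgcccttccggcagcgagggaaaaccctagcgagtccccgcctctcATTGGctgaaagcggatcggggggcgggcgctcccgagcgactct
Nsdhl: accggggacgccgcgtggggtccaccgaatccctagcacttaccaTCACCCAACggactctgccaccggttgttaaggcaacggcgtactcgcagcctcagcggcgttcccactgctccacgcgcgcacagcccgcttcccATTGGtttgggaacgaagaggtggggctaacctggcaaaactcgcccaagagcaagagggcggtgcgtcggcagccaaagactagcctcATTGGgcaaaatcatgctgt
The element of Hmgcs1 begins 137 bases before the start and that of Nsdhl 205 bases before it, and the printed stretches hold 3 and 2 CCAAT boxes. All CCAAT boxes in both stretches lie on the opposite strand. A match of letters is a description of the sequence, and binding was not measured. Only exact matches within 300 bases were searched, so a gene without a match may hold a sterol element in another form or place.

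The steps from farnesyl diphosphate to lanosterol also had higher means in KO for all 3 genes, with a mean difference of 0.58. Sqle, the squalene epoxidase and a rate-limiting enzyme of the route, gave 1666, 1648 and 1704 in the KO arrays and 962, 925 and 784 in the Het arrays. It was the gene with the clearest separation of the 24, since the KO arrays varied by only 28.8 (SD, n = 3 arrays) around 1673, and the lowest KO array lay 0.77 log2 units above the highest Het array. The difference was 0.90 (SE 0.21), or 1.88-fold. Fdft1, the squalene synthase, gave 1076.5, 763.5 and 1140.3 in KO and 707, 614 and 584 in Het, a difference of 0.62 (SE 0.30). Here KO replicate 2 lay near Het replicate 1, and the second probe set of Fdft1 above the filter was at 0.74 with overlapping arrays. Lss, which closes the ring to lanosterol, overlapped, with a difference of 0.23 (SE 0.31). Leaving out KO replicate 3 brought Lss to 0.07, and leaving out Het replicate 2 brought it to 0.12.

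**Figure D2:**
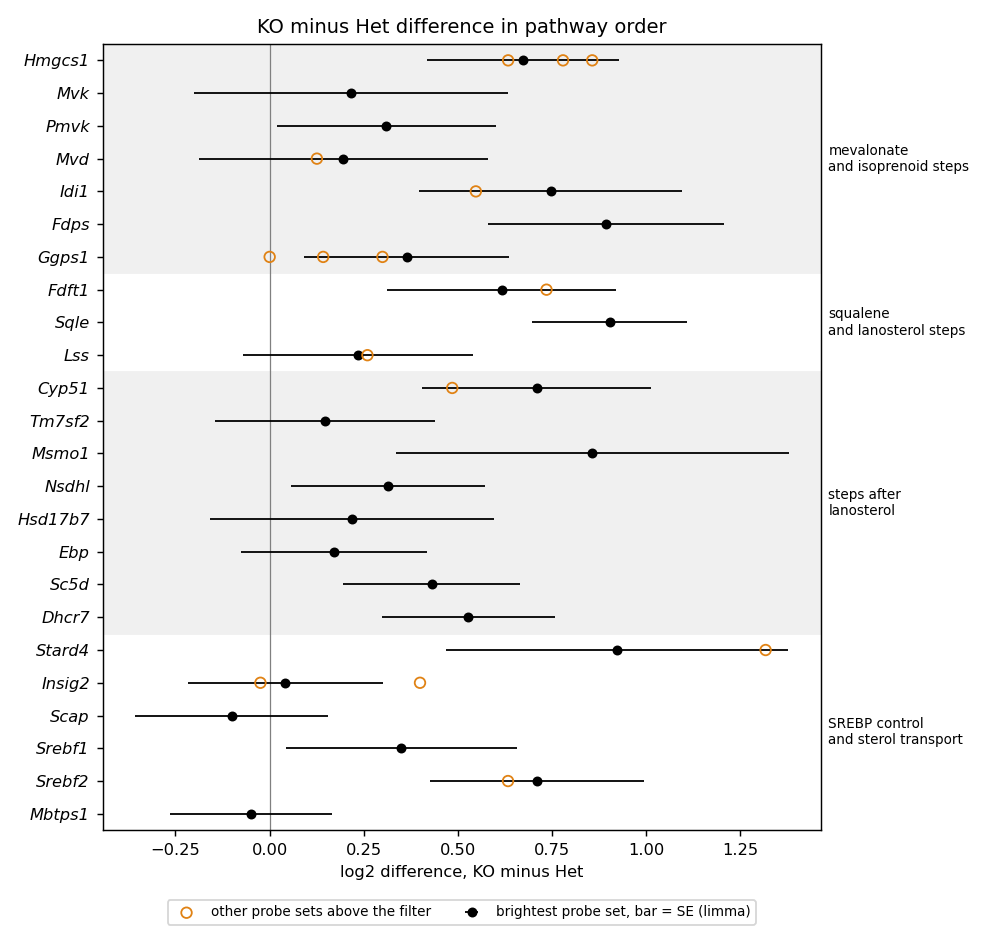
Log2 difference of KO minus Het for the 24 genes in pathway order; black points are the brightest probe set of each gene with the standard error of the limma fit, and open circles are the other 15 probe sets above the filter. Stard4, Sqle and Fdps lie at 0.92, 0.90 and 0.89, and Scap and Mbtps1 lie below 0.

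All 8 enzymes that convert lanosterol to cholesterol had higher means in KO, and 4 of them, Cyp51, Nsdhl, Sc5d and Dhcr7, had arrays that did not overlap. Cyp51, the lanosterol demethylase, gave 607, 674 and 913.5 in KO and 519, 361 and 437 in Het, a difference of 0.71 (SE 0.30). A second probe set of Cyp51 was at 0.48 with overlapping arrays. Dhcr7, the reductase of the last step to cholesterol, gave 570.0, 655 and 602 in KO and 447, 376.5 and 430.4 in Het, a difference of 0.53 (SE 0.23). The sterol desaturase Sc5d gave 523, 478 and 559 in KO against 328, 452 and 372 in Het, with KO replicate 2 close to Het replicate 2 and a difference of 0.43 (SE 0.23). Nsdhl, which helps to remove methyl groups from the sterol ring and whose upstream bases are shown above, gave 661.5, 699 and 857 in KO against 557, 556 and 655 in Het. KO replicate 1 and Het replicate 3 of Nsdhl were almost equal, and its difference of 0.31 (SE 0.26) was 0.21 without KO replicate 3.

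Msmo1, the methylsterol oxidase, had the widest spread of these enzymes. It gave 428, 693 and 1109 in KO and 474, 311 and 357 in Het, so KO replicate 1 fell within the Het range while KO replicate 3 was the highest array. Its difference was 0.86 (SE 0.52), and 0.52 without KO replicate 3. Hsd17b7, the ketosteroid reductase, was at 0.22 (SE 0.38), the isomerase Ebp at 0.17 (SE 0.25) and the sterol reductase Tm7sf2 at 0.15 (SE 0.29), all with overlapping arrays. With 1 array left out, Hsd17b7 ranged from 0.09 (KO replicate 2 left out) to 0.42 (KO replicate 1), Ebp from 0.08 (KO replicate 3) to 0.27 (KO replicate 1) and Tm7sf2 from 0.09 (Het replicate 2) to 0.24 (Het replicate 3). For Msmo1, Hsd17b7 and Ebp the lowest KO array was replicate 1, and without that array these 3 genes also had no overlap between groups. The count of genes higher in KO without overlap was then 16 of 24, against 13.0% of all probe sets in the same 5 arrays. With KO replicate 3 left out instead, the count stayed at 13 of 24, against 18.0% of all probe sets.

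Among the genes of SREBP control, both SREBP genes had higher signals in KO, whereas Scap, Mbtps1 and Insig2, whose products handle SREBPs, had overlapping arrays. Srebf2, whose product drives mainly the sterol genes, gave 473, 409 and 332 in KO and 257, 218.5 and 242 in Het, a difference of 0.71 (SE 0.28), and a second probe set was at 0.63, also without overlap. Srebf1, whose product drives mainly fatty acid genes, gave 2950.3, 2193 and 1840.4 in KO and 1826, 1800.3 and 1741 in Het. KO replicate 3 and Het replicate 1 of Srebf1 were nearly equal, the difference of 0.35 (SE 0.31) was 0.17 without KO replicate 1, and quantile normalization made the arrays of Srebf1 overlap. Scap, the escort protein, read 967, 1112 and 1294.5 in KO against 1434, 1168 and 1029 in Het, with groups that overlapped widely at -0.10 (SE 0.26). Leaving out KO replicate 1 brought it to 0.001, and leaving out Het replicate 1 to 0.03. Mbtps1, the protease that makes the first cut in SREBPs, read 1023, 1057 and 1095 in KO against 1099, 1139.9 and 1048 in Het, at -0.05 (SE 0.22).

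Insig2, which retains the Scap complex in the endoplasmic reticulum, read 659, 501 and 562 in KO against 518, 599 and 545.5 in Het, a difference of 0.04 (SE 0.26). Its 2 dimmer probe sets above the filter were at 0.40 without overlap and at -0.02, so Insig2 had no single direction. Stard4, a carrier of cholesterol between membranes and a known SREBP target, gave 671, 509 and 1120.5 in KO and 414.5, 373 and 343 in Het. Its difference of 0.92 (SE 0.45), a 2.03-fold ratio, was the largest of the 24 genes, and its second probe set was at 1.32 without overlap.

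Over the 24 genes, 15 other probe sets passed the filter. Of these, 14 had higher means in KO, against 47.7% of all probe sets above the filter. Without overlap, 5 were higher, against 7.87% of all probe sets. The exception was 1 probe set of Insig2, and 1 probe set of Ggps1 counted as higher was at 0.0001. Of the 13 genes without overlap, 7 had another probe set above the filter, and for Hmgcs1, Stard4 and Srebf2 at least 1 of these was also without overlap.

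The arrays of 1 group were not alike. KO replicate 3 was the highest array for 15 of the 24 genes, against 18.0% of all probe sets, and Het replicate 2 was the lowest array for 12 of them, against 17.7%. Set against the gene's 6-array mean, the 24 genes lay on average at 0.11, 0.13 and 0.41 in KO replicates 1 to 3 and at -0.12, -0.32 and -0.21 in Het replicates 1 to 3. Among the KO arrays alone, replicate 3 was the highest for 17 of the 24 genes. The mevalonate and isoprenoid steps lay at 0.06, 0.14 and 0.54 in KO replicates 1 to 3, the squalene and lanosterol steps at 0.29, 0.10 and 0.48, and the steps after lanosterol at 0.01, 0.21 and 0.41. Single enzymes departed from this order, since Ggps1, Dhcr7 and Hsd17b7 were highest in KO replicate 2 and Tm7sf2 in KO replicate 1. Srebf1 and Srebf2 were highest in KO replicate 1 and lowest among the KO arrays in replicate 3.

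**Figure D3:**
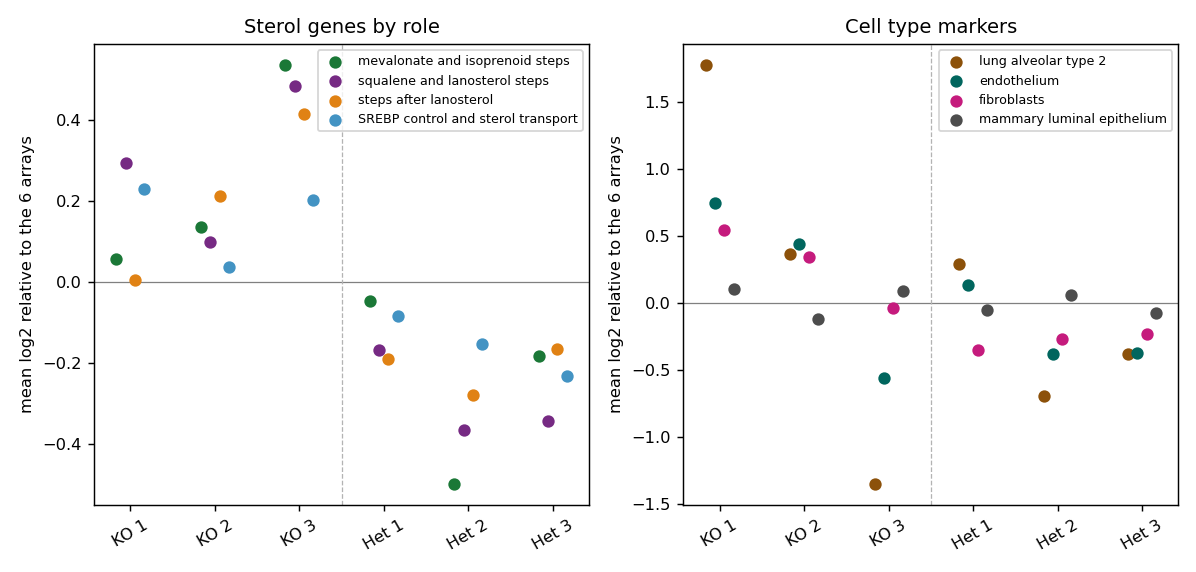
Mean log2 signal of gene groups in each array relative to the mean of the 6 arrays; sterol genes by role on the left, markers of cell types on the right, with a dashed line between KO and Het arrays and different vertical scales. Sterol genes are above 0 in all KO arrays and below 0 in all Het arrays, whereas alveolar type 2 markers lie at 1.78 in KO replicate 1 and at -1.35 in KO replicate 3.

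Lung marker signals differed between the arrays, and in bulk RNA fewer cells of a type and less RNA per cell cannot be told apart. All 11 luminal epithelial markers were measured, and their summed signal was 49464 to 55505 in KO and 51439 to 59303 in Het arrays. The bright keratin Krt8 was at 0.01, whereas Foxa1, a luminal transcription factor, was higher in KO without overlap at 1.08, and Elf5 and Krt19 were at -0.72 and -0.42 with overlap. Alveolar type 2 markers (7 of 8 measured) summed to 67355, 34062 and 10515 in KO replicates 1 to 3 and to 17857 to 29864 in Het. KO replicate 3 had the highest sterol gene mean and the least alveolar type 2 signal of the 6 arrays. Within Het, replicate 1 had the highest sterol gene mean and the most alveolar type 2 signal, and replicate 2 had the least of both. The part of lung cells in the sterol result was not tested. Without KO replicate 3 the mean difference of the mevalonate and isoprenoid steps was 0.34, against 0.49 with it. The squalene and lanosterol steps were at 0.489, against 0.585, and the steps after lanosterol at 0.32, against 0.42. SREBP control and sterol transport was at 0.29, against 0.31. Of the 24 genes, 20 were then higher in KO, against 22, and the median difference was 0.39, against 0.36. Alveolar type 1 markers (5 of 6) summed to 2705 to 11157 in KO and 3220 to 4982 in Het. Airway markers (4 of 4) summed to 6162 to 23412 in KO and 17228 to 21907 in Het. Endothelial markers (8 of 8) summed to 1148 to 3007 in KO and 1330 to 2085 in Het. The mean log2 difference of KO minus Het was 0.52 for alveolar type 2, 0.43 for alveolar type 1 and 0.41 for endothelial markers. It was -0.47 for airway markers and 0.43 for the 24 sterol genes. The arrays overlapped for every marker of these lung lists.

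Of the fibroblast markers, 5 of 6 were higher in KO without overlap, against 5.93% of genes above the filter and 7.87% of all probe sets. Lum, 1 of these 5, was below the filter, and the exception was Pdgfra at -0.30. Their summed signal was 7493, 6871 and 5153 in KO replicates 1 to 3 and 4222 to 4388 in Het, and their part in the sterol result was not tested. Macrophage markers (8 of 8) summed to 3223 to 5845 in KO and 4382 to 5268 in Het. Adipocyte markers (4 of 5) summed to 221 to 659 and 198 to 531, mostly from Fabp4, and lymphocyte markers (6 of 6) to 110 to 275 and 91 to 185, and the part of these cells was not tested. No marker was listed at exactly 0, and detection calls were not used here. Het replicate 1 stood apart in RNA quality, with a 3′ to 5′ ratio of 11.8 for the transferrin receptor against 3.25 to 5.15 elsewhere. Without both KO replicate 1 and Het replicate 1, an alternative chosen after the data were seen, 22 of 24 sterol genes were still higher in KO and the median difference was 0.43. Myc gave 10662 to 13138 in KO and 11302 to 13558 in Het. E2f3 gave 91.4 to 137.9 and 73.0 to 144.2, and the position of its probe set relative to the altered stretch was not determined.

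For 5 neighbouring lists of lipid genes, counts are again of the brightest probe set of each gene, to be read against the 43.7% of all genes higher in KO and the 7.87% and 8.89% of probe sets without overlap in each direction. Of 14 listed genes that use isoprenoids, to modify proteins or to make dolichol among other uses, 10 were measured. Of these 10, 6 had higher means in KO, 4 had lower means and 0 were without overlap, with a median difference of 0.04. Of 12 further genes listed for SREBP processing and sterol sensing, 7 were measured, 3 higher and 4 lower, with a median of -0.11. Pgrmc1, a haem-binding membrane protein, was the single one without overlap, at -0.13 (SE 0.20). Of 12 genes listed for sterol storage and transport, 9 were measured, 5 higher and 4 lower, with a median near 0. Stard3, which moves cholesterol from late endosomes, gave 738, 663 and 648 in KO and 447, 391 and 426 in Het, a difference of 0.68 (SE 0.23), whereas the oxysterol-binding protein gene Osbpl2 was lower without overlap at -0.32 (SE 0.26).

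Of 10 genes listed for sterol efflux and its control by liver X receptors, 8 were measured. Of these 8, 7 had lower means in KO, with a median difference of -0.22. Abca1, the pump that loads cholesterol onto lipoproteins, gave 1598, 1475 and 894 in KO and 2056, 1797.5 and 2069 in Het, a difference of -0.61 (SE 0.38) without overlap. A dimmer probe set of Abca1 was at -0.01, so this direction rests on 1 of 2 probe sets. On average the 8 genes lay at 0.136, 0.151 and -0.576 in KO replicates 1 to 3 and at 0.205, -0.124 and 0.208 in Het. KO replicates 1 and 2 were thus within the Het range, and the lower KO mean of the list came from KO replicate 3. That array was the lowest for 6 of the 8 genes, against 20.8% of all probe sets. It was also the lowest for 6 of 7 alveolar type 2, 5 of 8 endothelial and 5 of 8 macrophage markers, but for 0 of 4 airway markers. Scarb1, the receptor for high-density lipoprotein, was the 1 efflux gene with a higher mean in KO. It was at 0.32 (SE 0.22) without overlap, with other probe sets at 0.45 and 0.39.

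Of 13 fatty acid synthesis genes under Srebf1, 9 had higher means in KO and 4 lower, with a median of 0.12. Elovl6, a fatty acid elongase, was without overlap at 0.75 (SE 0.28), and the acyltransferase Gpam was lower without overlap at -0.32 (SE 0.20), although its dimmer probe set was higher without overlap at 0.66. Of the 11 other probe sets of these genes above the filter, 9 had higher means in KO and 6 were higher without overlap. They included the desaturase genes Scd1 at 0.86, Scd2 at 0.74 and 1.33 and Fads2 at 0.54, whose brightest probe sets overlapped. Over the 5 lists, 11 of 31 other probe sets above the filter were higher without overlap, against 7.87% of all probe sets. Over the 5 lists, 0 of these other probe sets were lower without overlap, against 8.89%. None of the genes in these 5 neighbouring lists passed the limma test, and differences between the lists were not tested.

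**Figure D4:**
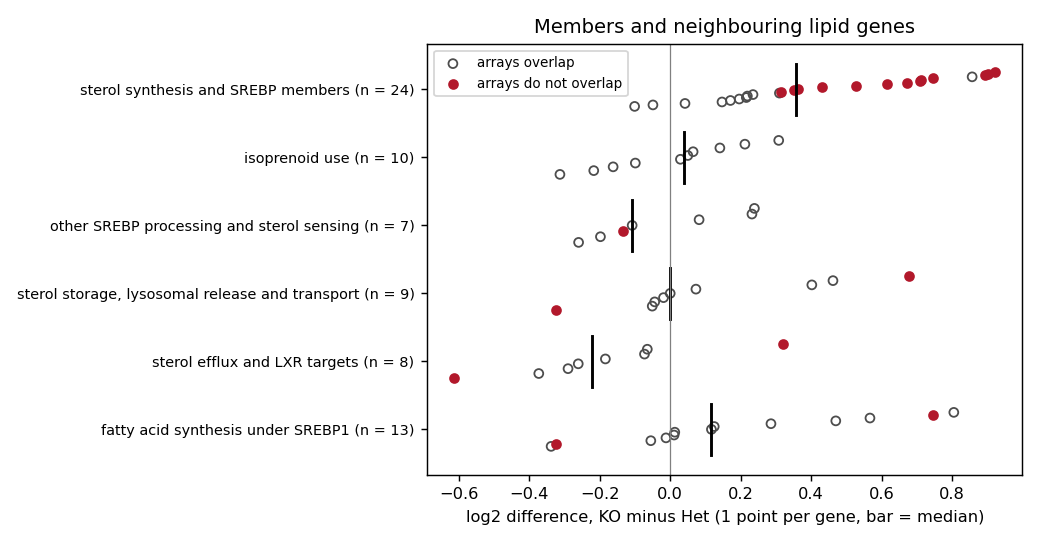
Log2 difference of KO minus Het for the brightest probe set of each gene of the sterol list and of 5 neighbouring lipid gene lists; filled red points are genes whose KO and Het arrays do not overlap, open points the rest, and vertical bars the medians. The sterol list has a median of 0.36 and 13 filled points, and the other lists have medians from -0.22 to 0.12 and at most 2 filled points each. Other probe sets of these genes are not drawn.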

How the data were processed

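RNA from 6 lung metastases was hybridised to Affymetrix mouse arrays. The deposited values are signal intensities on a linear scale that the authors had scaled, with a trimmed mean of 500.2 on every array. MAS5 and Affymetrix Expression Console are named in the submitters' processing notes, without versions, with no genome build in the sources used here. The number of arrays limits the precision.

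Signals were taken as log2(signal + 16). From 22690 probe sets, 64 controls and then the 40% with the lowest mean were left out, which kept 13575. limma 3.58.1 in R 4.3.3 (lmFit, eBayes with a mean-variance trend) compared the 3 KO arrays with the mean of the 3 Het arrays, counted as 1 sample because their titles share a number, with Benjamini-Hochberg adjustment over all probe sets at 0.05. This fit takes the spread of the KO samples for the single Het sample too. SE is that of this fit, and SD is over the 3 arrays of a group. On simulated data the fit returned the sizes of known changes but called none of them; with each array as a sample it called some.

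Platform annotation named 20380 probe sets with 1 symbol, 691 with several and 1555 with none. Of the first, 20351 were matched by Entrez ID to the RefSeq table of GRCm38.p6. Members, neighbouring lists and tests were chosen with earlier results of these data known. Every member is accounted for, with all arrays shown for genes without overlap and for the SREBP regulators. Msmo1 is shown in full although its arrays overlap, a choice made after its values were seen. From each neighbouring list, up to 4 genes without overlap and with the largest difference were named. Alternatives changed the unit of replication, pseudocount, filter, normalization, probe set and arrays used.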

Additional observations from a re-analysis of the deposited data

How the results depend on the processing

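The count of probe sets called by limma was 0 under every alternative run, which says little about stability since the fit has little power. Among the 13 genes without overlap, quantile normalization left 12 (without Srebf1), and the mean of all probe sets of a gene left 11 (without Ggps1 and Idi1). A pseudocount, or fewer arrays, cannot remove a gene from this count by construction. With 60% left out, 19 genes remained and their median difference was 0.53. With all probe sets averaged, the squalene and lanosterol steps were at 0.41, Lss turned to -0.10 and Mbtps1 to 0.035, with dim probe sets entering both means. Leaving out 1 or 2 arrays gave 0 to 1 genes lower without overlap (Mbtps1, without Het replicate 3), and ranges of -0.08 to 0.442 for Mvk, -0.042 to 0.361 for Mvd, -0.11 to 0.13 for Insig2 and -0.21 to 0.13 for Scap. With KO replicate 1 and Het replicate 2 left out together, Mvk was at -0.03, Insig2 at -0.004 and Mbtps1 at 0.0036. With KO replicate 1 and Het replicate 1 left out together, chosen after the data were seen, Insig2 was at -0.11 and Scap at 0.13. The cause of these turns was not tested. The other 18 genes kept their direction under each alternative that gave a value for them, and with 60% left out there was none for Pmvk, Tm7sf2 and Hsd17b7. No paired analysis was possible because the labels give no replicate numbers shared between groups.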
